A study of Mus musculus with 28 samples.

Results

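The microRNA processing and silencing machinery was described here through 10 genes: Drosha, Dgcr8, Xpo5, Dicer1, Ago1, Ago2, Ago3, Tnrc6a, Tnrc6b and Tnrc6c. They were chosen by name, and all 10 were present among the 41549 named genes of the count tables. The samples were nuclear RNA of mouse motor cortex (7 animals, 17 to 23) in a study of microRNA knockdown with Cas9 carried by adeno-associated virus (AAV). Every animal received AAV-Cas9-miR-124-empty on the left and AAV-Cas9-miR-124-g4 on the right, called empty and g4 below, so that vector and hemisphere coincided. All groups therefore came from animals that carried both vectors, and an uninjected group was not analysed here. Nuclei of fixed tissue were stained for the HA tag on Cas9 and sorted, which gave 4 groups of 7 libraries: empty HA-negative, g4 HA-negative, empty HA-positive and g4 HA-positive. The sources used here do not give the strain, sex or age of the mice, the promoter that drives Cas9, or the sequence meant by g4.

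A microRNA starts as a hairpin in a longer nuclear transcript. The Microprocessor, made of the nuclease Drosha and its RNA-binding partner Dgcr8, cuts the hairpin out, and Exportin-5, encoded by Xpo5, carries it to the cytoplasm. Dicer then cuts off the loop, and one strand is loaded into an Argonaute protein, which pairs with target messages through the seed at the start of the microRNA. Argonaute recruits a GW182 protein, encoded by Tnrc6a, Tnrc6b or Tnrc6c, which brings in the enzymes that shorten the poly(A) tail, remove the cap and block translation. In brain, miR-124 is among the most abundant microRNAs of neurons.

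The libraries were shallow, with 248612 to 902944 counts and 8687 to 13668 genes detected, and 17.0 to 40.4% of the counts fell on ribosomal RNA genes. In 4 HA-positive libraries fewer than 10000 genes were detected: empty 17, 21 and 22 and g4 18. The hairpin gene Mir124a-2 had 57 counts in g4 HA-positive libraries and 0 in the other 21. Of the 57, 30 came from animal 20 and 17 from animal 21, while animal 17 had 0 and the others 1 to 4. Mir124a-1 and Mir124a-3 had 0 in all 28, and mature miR-124 was not analysed here. The g4 HA-positive library of animal 19 stood apart, with 591 counts of the X-inactivation transcript Xist, or 614 CPM (counts scaled to the size of the library). The 15 other libraries of animals 17 to 20 had 0 counts of Xist, and all libraries of animals 21 to 23 had 459 to 1329 CPM. That library of animal 19 also had 1158 CPM over 6 oligodendrocyte markers against a median of 122 in its group. Why it differed from the other libraries of its animal was not tested. Over all 28 libraries the 10 genes held 12332 counts. In a single library a gene of the set had between 0 and 159 counts, so a level in one library carries a wide counting error. Across the 7 libraries of a group the coefficient of variation of a gene was 12.5 to 54.0% in 3 of the groups and 22.2 to 104% in empty HA-positive nuclei. The median ratio of the observed SD to that of counting alone lay between 1.57 and 2.02 in the 4 groups.

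Since the vectors are named for miR-124, the annotated 3' untranslated regions (3' UTRs) of the 10 genes were searched for matches to its seed. These sites are shown because they are the stretches through which a change in miR-124 could reach the machinery's own messages. The letters searched, on the strand of the gene, were GTGCCTT (7mer-m8), TGCCTTA (7mer-A1) and GTGCCTTA, which holds both (8mer). In 6 of the 10 genes the longest 3' UTR held a match, 10 in all, and none held an 8mer. The matched bases are in capitals, with 11 bases on each side, 5′ to 3′ on the gene's strand (GENCODE annotation, GRCm38).
Xpo5, chr17:46243031-46243059, plus strand: gctgagtccagGTGCCTTggaaatctcag
Dicer1, chr12:104690952-104690980, minus strand: gagaggattctTGCCTTAaaaggaaggac
Ago1, chr4:126438749-126438777, minus strand: gtgggtaaccaGTGCCTTcccgcaacggt
Ago2, chr15:73104082-73104110, minus strand: ttaagtaaggtGTGCCTTgctttaagcaa
Ago2, chr15:73097829-73097857, minus strand: ttatttattttGTGCCTTttatgttaacc
Ago3, chr4:126340063-126340091, minus strand: gttctcagaaaGTGCCTTttttgaagatg
Ago3, chr4:126336020-126336048, minus strand: aagttttccagGTGCCTTcttagcccagg
Tnrc6b, chr15:80933530-80933558, plus strand: aaaccgctttaGTGCCTTcgtacatacac
Tnrc6b, chr15:80936728-80936756, plus strand: tacttctgaatGTGCCTTtgtcagcccag
Tnrc6b, chr15:80937143-80937171, plus strand: tttaccctctcTGCCTTAgaaggtcatga

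Drosha, Dgcr8, Tnrc6a and Tnrc6c held no match in these windows. Of 21123 protein-coding genes with a 3' UTR, 20.6% held a match of any kind and 2.76% an 8mer. Long 3' UTRs hold more matches by length alone: of 3157 genes with at least 3000 bases, 49.7% held one. The 3' UTRs of Ago2 (11064 bases), Ago3 (12742) and Tnrc6b (11609) stood at percentiles 99.8, 99.9 and 99.8 of all 3' UTR lengths, while that of Drosha had 169 bases. A match is a stretch of letters and not a site shown to be used.

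The Microprocessor cuts hairpins inside the message of its own subunit Dgcr8, a known feedback between the partners. One of them is annotated as the microRNA Mir1306, inside the coding sequence of Dgcr8 on the same strand (chr16:18284239-18284317, minus strand). It is shown because it lies within a message that this set both makes and cuts; the letters are RefSeq's (GRCm38.p6), with both mature microRNAs in capitals in the hairpin and the seeds (bases 2 to 8) in capitals in the mature forms.
Mir1306 hairpin: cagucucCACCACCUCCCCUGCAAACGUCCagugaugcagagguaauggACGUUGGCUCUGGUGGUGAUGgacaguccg
miR-1306-5p: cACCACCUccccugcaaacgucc
miR-1306-3p: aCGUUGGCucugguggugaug
The gene row Mir1306 had 0 counts in all 28 libraries. The cut itself was not measured.

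Compared per kilobase of exon, the partners of the Microprocessor stood at opposite ends of the set. Drosha (chromosome 15, 12824815 to 12935291) had the highest level, 14.0 ± 3.95 CPM per kilobase (SD over 28 libraries), and Dgcr8 (chromosome 16, 18253948 to 18289246) the lowest, 3.12 ± 1.78. Drosha was above Dgcr8 in 28 of 28 libraries, with a ratio of mean levels per kilobase of 2.93 in empty HA-negative, 3.44 in g4 HA-negative, 8.49 in empty HA-positive and 5.06 in g4 HA-positive nuclei. Between them came Ago2 at 9.38 ± 2.58, Tnrc6b at 7.29 ± 1.30, Ago1 at 6.78 ± 2.74, Tnrc6a at 6.73 ± 1.92, Ago3 at 6.55 ± 1.43, Tnrc6c at 5.95 ± 2.11, Xpo5 at 4.66 ± 2.92 and Dicer1 at 3.57 ± 1.34 CPM per kilobase. Only the step from Drosha to Ago2 was larger than the wider of the 2 SDs; the other 8 neighbours in this order did not differ beyond their spread. Drosha ranked highest in 21 of 28 libraries, Ago2 in 5 and Tnrc6c in 2. Dgcr8 ranked lowest in 12, Dicer1 in 9, Xpo5 in 5 and Tnrc6a in 2. With the length of the longest transcript in place of all exons, Drosha stayed first and the last 3 stayed Xpo5, Dicer1 and Dgcr8, while Ago2 moved from rank 2 to 4 and Tnrc6a from 5 to 2. These are levels of nuclear RNA and not of protein. A level per kilobase takes the counted reads to be spread over all exons, which was not checked here.

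**Figure D1:**
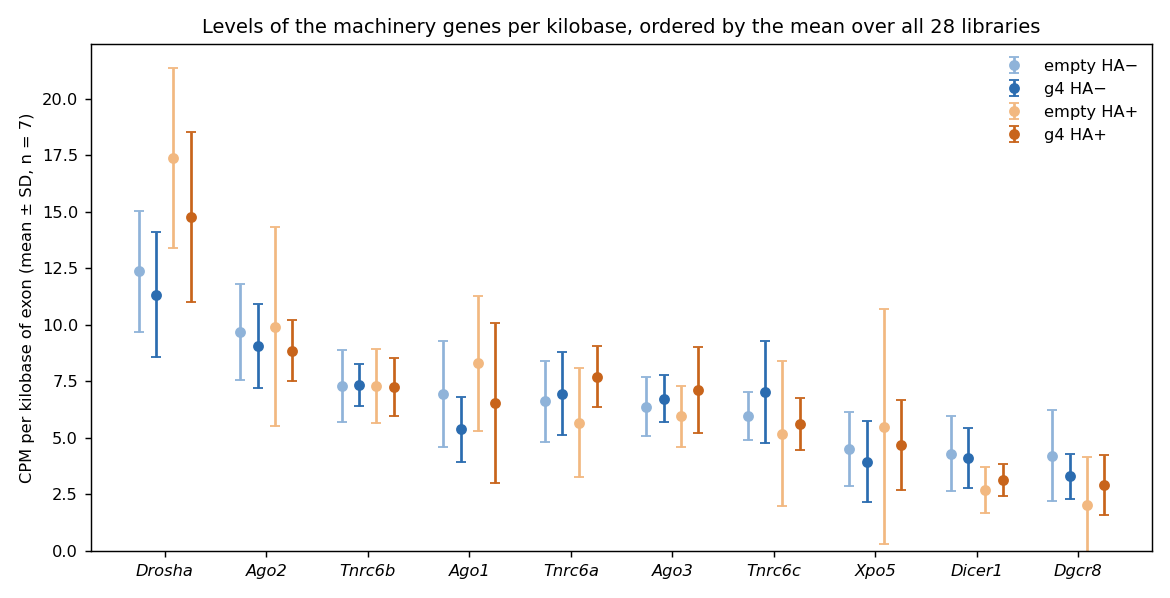
Level of each machinery gene in CPM per kilobase of exon (vertical axis), as the mean and SD of 7 libraries in each of the 4 groups (colours), with genes ordered by their mean over all 28 libraries. Drosha, at 14.0 over all libraries, stands above the others, and Dgcr8, at 3.12, is the lowest.

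Drosha, the nuclease that starts processing, gave 47.1, 71.3 and 94.5 CPM as lowest, median and highest value in empty HA-negative libraries, and 47.1, 63.9 and 95.1 in g4 HA-negative ones. In HA-positive libraries the values were 69.9, 105 and 148 with empty and 55.3, 89.3 and 115 with g4. The HA-positive values lay toward the upper end, and the ranges of all groups overlapped. Dgcr8 was close to the detection limit. It gave 17.5, 31.5 and 63.8 CPM in empty HA-negative, 13.0, 26.1 and 36.8 in g4 HA-negative, 0, 17.8 and 41.4 in empty HA-positive and 11.0, 18.7 and 38.7 in g4 HA-positive libraries. The empty HA-positive libraries 17, 18 and 19 had 0 counts of Dgcr8, which at their depth allows up to 10.5, 6.08 and 8.55 CPM (3 counts, counting error only). The other 4 had 7 to 16 counts. Dgcr8 overlaps Trmt2a on the other strand, which had 109 counts against 371 for Dgcr8 over all libraries, and the strand setting of the counting is not given, so reads of the overlap cannot be told apart.

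Xpo5 (chromosome 17, 46202782 to 46243598), the export carrier, was low and spread widely. Its lowest, median and highest values were 13.1, 35.9 and 45.0 CPM in empty HA-negative, 9.32, 25.6 and 45.8 in g4 HA-negative, 11.4, 20.5 and 113 in empty HA-positive and 21.9, 25.3 and 60.3 in g4 HA-positive libraries. The 113 CPM (41 counts) came from the empty HA-positive library of animal 21, and the next value of that group was 48.9. That library also had the highest Dgcr8, Ago2, Ago3 and Tnrc6c and the lowest Tnrc6a of its group, and the 10 genes summed to 1126 CPM in it against a group median of 760.

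Dicer1 (chromosome 12, 104687742 to 104751952), the cytoplasmic nuclease, gave 37.3, 73.6 and 121 CPM in empty HA-negative and 39.0, 61.5 and 104 in g4 HA-negative libraries. In HA-positive libraries it gave 10.5, 48.2 and 59.8 with empty and 31.8, 52.8 and 68.7 with g4. The highest values were HA-negative, and the groups overlapped. The 10.5 CPM, in the empty HA-positive library of animal 17, rested on 3 counts.

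Ago2 (chromosome 15, 73095844 to 73184935), the Argonaute that can itself cut a fully paired target, was the highest of its family per kilobase. It held 40.2 to 42.8% of the summed level of Ago1, Ago2 and Ago3 in the 4 groups, a sum that leaves out Ago4. Its lowest, median and highest values were 90.8, 132 and 180 CPM in empty HA-negative, 89.5, 133 and 159 in g4 HA-negative, 62.9, 145 and 235 in empty HA-positive and 90.4, 130 and 143 in g4 HA-positive libraries. Ago1 and Ago3, neighbours on chromosome 4 (126435012 to 126468583 and 126331704 to 126429556), shared the rest of that sum. Ago1 ranged over all groups from 20.1 to 110 CPM and took 25.2 to 34.3% of the sum per kilobase. Ago3 ranged from 70.8 to 167 CPM and took 25.5 to 32.0%. Per kilobase Ago2 lay above Ago1 in 23 and above Ago3 in 22 of 28 libraries. Ago4, the fourth mouse Argonaute and not in the set, had 143 counts in all libraries, means of 5.96 to 10.2 CPM, and passed the filter on low counts in no comparison.

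Of the GW182 genes, Tnrc6b (chromosome 15, 80711313 to 80941085) had the highest CPM and nearly the same mean in each group: 172 ± 37.5 in empty HA-negative, 174 ± 21.7 in g4 HA-negative, 173 ± 38.4 in empty HA-positive and 171 ± 30.5 in g4 HA-positive libraries (SD, n = 7). Its lowest value, 107 CPM in the g4 HA-positive library of animal 18, stood below the next, 165, in that group. Tnrc6a (chromosome 7, 123123885 to 123195296) gave 52.9, 78.6 and 124 CPM in empty HA-negative, 57.5, 98.5 and 120 in g4 HA-negative, 16.6, 79.8 and 115 in empty HA-positive and 77.3, 95.5 and 130 in g4 HA-positive libraries. Tnrc6c (chromosome 11, 117654289 to 117763439) had means of 76.7 ± 13.8, 90.5 ± 29.0, 66.6 ± 41.0 and 71.9 ± 14.8 CPM in the same order. The sum over the 10 genes was 839 ± 48.5 CPM in empty HA-negative, 824 ± 40.8 in g4 HA-negative, 818 ± 152 in empty HA-positive and 832 ± 63.1 in g4 HA-positive libraries, so its group means differed by less than the spread within any group.

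**Figure D2:**
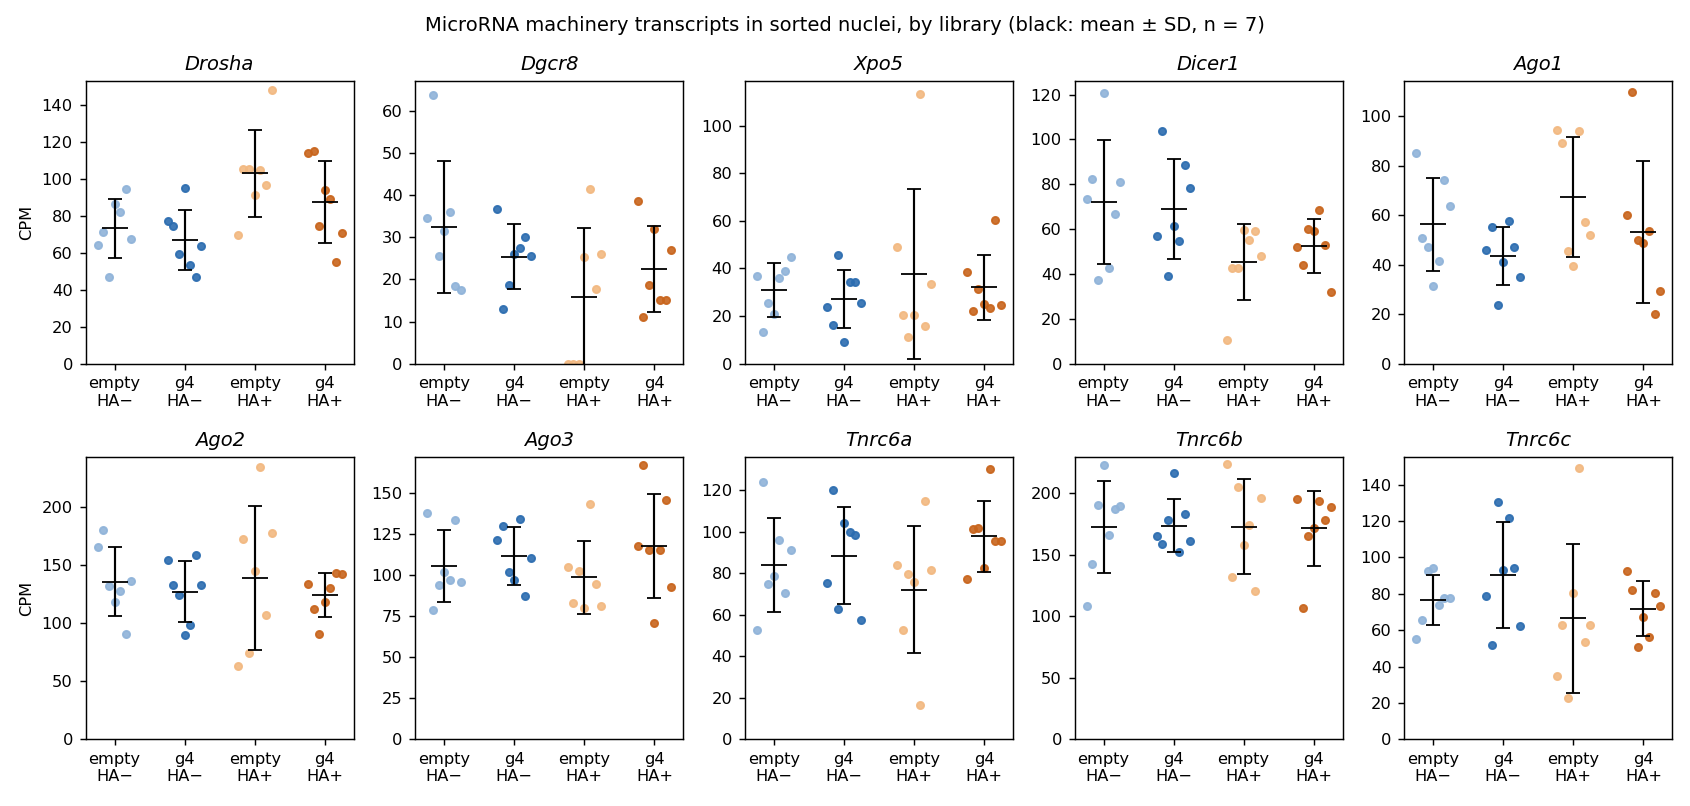
CPM of each machinery gene (vertical axes, linear, from 0) in every library, grouped by vector and HA sort; black marks are the mean and SD of 7 libraries. The groups overlap for all 10 genes, the HA-positive points of Drosha lie high, and Xpo5 has 1 empty HA-positive library at 113 CPM.

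The first comparison asked whether the machinery differed between g4 and empty in HA-positive nuclei, those sorted for Cas9. None of the 9 genes tested was called, against 0.0599% of all 5011 genes tested (edgeR's quasi-likelihood test, Benjamini-Hochberg adjusted p under 0.05 in either direction). By the same test none of the 9 had an unadjusted p under 0.05, against 335 of all genes. DESeq2 also called none of them. Their log2 fold changes ran from -0.34 to 0.44 with a median of 0.00, beside -0.01 for all genes, 5 above 0 and 4 below. Adjusted p-values lay between 0.799 and 0.997.

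At the nuclear steps, Drosha stood at 87.7 ± 22.3 CPM with g4 and 103 ± 23.5 with empty (SD, n = 7; log2 fold change -0.23 ± 0.23 SE, 95% interval -0.70 to 0.24). Dgcr8 did not pass the filter on low counts. Fitted without the filter it had a log2 fold change of 0.56 ± 0.60 with an interval of -0.61 to 1.73, too wide to place it. Xpo5 gave -0.21 ± 0.45, and without the libraries of animal 21 it gave 0.46, so its direction rested on that animal. Dicer1 gave 0.20 ± 0.32.

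Among the effectors, Ago1 gave -0.34 ± 0.33, Ago2 -0.17 ± 0.24 and Ago3 0.25 ± 0.22. Tnrc6a had the largest difference, 97.8 ± 17.1 CPM with g4 against 72.1 ± 30.5 with empty (log2 fold change 0.44 ± 0.28, 95% interval -0.12 to 1.00, adjusted p 0.799 by edgeR), and the libraries overlapped. It rested on animal 21, whose empty library had the 16.6 CPM: without that animal Tnrc6a gave 0.18, below Xpo5 and Tnrc6c at 0.46 and Ago3 at 0.37. Tnrc6b was the best measured, with 0.00 ± 0.18 and an interval of -0.36 to 0.37. Tnrc6c gave 0.09 ± 0.31. Marker lists also differed between the vectors in their medians. The 6 excitatory neuron markers had a median log2 fold change of 0.43 and the 6 inhibitory ones -0.36. The 5 tested astrocyte markers had 0.61 and the 2 tested of 6 oligodendrocyte markers 1.84, with 0 of all these called. The oligodendrocyte value includes the g4 library of animal 19, which had 1158 CPM over the 6 markers. The group medians of that sum were 122 CPM with g4 and 87.2 with empty. The part of these marker differences in the machinery values above was not tested.

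In HA-negative nuclei the same contrast called none of the 10, against 0.0% of 6262 genes, with 236 of all genes and none of the 10 under an unadjusted p of 0.05 by edgeR. DESeq2 called 1 gene of the table and none of the 10. Log2 fold changes ran from -0.38 ± 0.25 for Ago1 to 0.25 ± 0.20 for Tnrc6c, with Drosha at -0.14 ± 0.21, Dgcr8 at -0.32 ± 0.32, Dicer1 at -0.07 ± 0.23 and Tnrc6b at 0.01 ± 0.14. The difference between the g4 effects in the HA-positive and HA-negative nuclei, fitted over all 28 libraries, called none of the 10 either, against 0.0% of 7197 genes and 359 under an unadjusted p of 0.05. It was widest for Dgcr8 (0.85 ± 0.69) and ran from -0.15 to 0.40 for the others. Dgcr8 had not passed the filter on low counts over the HA-positive libraries alone.

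Averaging the g4 effect over both kinds of nuclei, a comparison added after the values were seen, narrowed the intervals. The fit took the 28 libraries as independent, though they came from 7 animals. It again called none of the 10 (edgeR, against 0.0% of 7197 genes, 485 under an unadjusted p of 0.05). Tnrc6b gave 0.02 with a 95% interval of -0.21 to 0.25, Ago2 -0.13 (-0.41 to 0.16), Ago3 0.17 (-0.10 to 0.45) and Drosha -0.17 (-0.48 to 0.13). Ago1 lay furthest from 0, at -0.35 (-0.77 to 0.07). The widest intervals were those of Xpo5 (-0.75 to 0.38) and Dgcr8 (-0.59 to 0.78). All 10 intervals lay within 1 log2 unit of 0 in this comparison.

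The genes with and without a miR-124 seed match were set side by side. For g4 against empty in HA-positive nuclei, 6 genes with a match (Xpo5, Dicer1, Ago1, Ago2, Ago3 and Tnrc6b, whose sites are printed above) had a median log2 fold change of -0.09, 3 above 0. The 3 tested genes without one (Drosha, Tnrc6a and Tnrc6c) had a median of 0.09, 2 above 0. In HA-negative nuclei the medians were -0.08 for 6 genes and -0.05 for 4. These are descriptions of few genes in nuclear RNA, and mature miR-124 was not analysed here. Tnrc6b, with 3 matches, had the value closest to 0 in both kinds of nuclei.

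**Figure D3:**
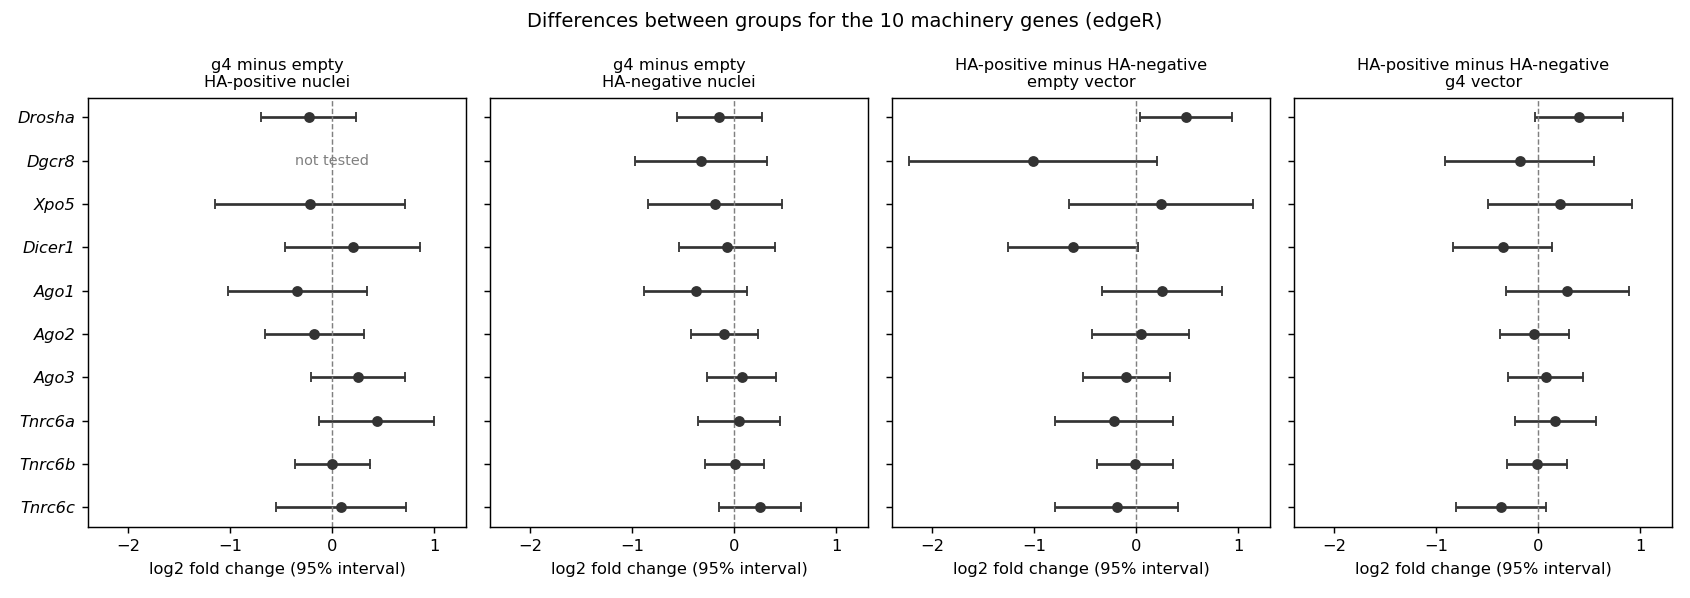
Log2 fold change (points) and 95% interval (bars) of each machinery gene in 4 comparisons fitted with edgeR; the dashed line is no difference, and Dgcr8 was not tested in the first. All intervals of the g4 comparisons reach across 0, from -0.34 for Ago1 to 0.44 for Tnrc6a in HA-positive nuclei, and of the fraction comparisons only that of Drosha with empty lies wholly above it.

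The second question was how HA-positive nuclei differed from HA-negative nuclei of the same hemisphere. Pairs follow the animal numbers in the titles, which for animal 19 with g4 join libraries that differed in Xist. The sorts differed in cell makeup. Summed over 6 markers, inhibitory neuron genes had medians of 671 and 583 CPM in HA-negative and 1976 and 1621 in HA-positive nuclei (empty, g4), and 5 and 6 of the 6 rose. Oligodendrocyte genes had medians of 1450 and 1242 against 87.2 and 122, and the microglial markers Cx3cr1, P2ry12 and C1qa were at 0 in empty HA-positive libraries. In such bulk samples fewer cells of a type and less RNA per cell cannot be told apart, and the part of cell makeup in the values below was not tested.

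None of the 10 machinery genes was called with either vector, against 7.01% of 5538 genes with empty and 6.4% of 6264 with g4. Only Drosha with empty had an unadjusted p under 0.05, where 1065 and 1089 of all genes did. Drosha was 103 ± 23.5 CPM in HA-positive and 73.4 ± 15.8 in HA-negative nuclei with empty, higher in 7 of 7 animals (log2 fold change 0.49 ± 0.22, adjusted p 0.217 by edgeR). With g4 it was 87.7 ± 22.3 against 67.3 ± 16.3, higher in 6 of 7 animals (0.40 ± 0.21, adjusted p 0.343). Dicer1 lay the other way. It was 45.5 ± 17.0 against 72.1 ± 27.8 CPM with empty (-0.62 ± 0.31, adjusted p 0.274) and 52.7 ± 12.0 against 69.0 ± 22.3 with g4 (-0.35 ± 0.24, adjusted p 0.495), and neither passed. Dgcr8 gave -1.01 ± 0.59 with empty and -0.18 ± 0.36 with g4, where the first includes the 3 libraries at 0. Over the HA-positive libraries alone Dgcr8 did not pass the filter on low counts. It was fitted here together with the HA-negative libraries, where its mean was higher. Xpo5 gave 0.24 ± 0.44 with empty, or -0.32 without animal 21, and 0.21 ± 0.35 with g4. Argonaute genes lay between -0.10 and 0.28 and the GW182 genes between -0.36 and 0.17 with either vector.

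With both vectors averaged in 1 model, also added after the values were seen, Drosha was the only gene of the set to pass: it rose by 0.43 ± 0.15 log2 units in HA-positive nuclei (95% interval 0.13 to 0.74, adjusted p 0.0478 by edgeR). That is 1 of 10 beside 13.7% of 7197 genes, a share near the background. The call was marginal. It passed with DESeq2 (adjusted p 0.0295) and without the libraries under 10000 genes (0.0358), and it was lost with the animal as a block (adjusted p 0.0562), with median-of-ratios factors (0.0532), without a filter on low counts (0.142) and without animal 17, 18, 19, 21 or 23 (0.0833 to 0.140). Dicer1 gave -0.50 ± 0.20 (interval -0.89 to -0.10, adjusted p 0.0868), and passed without animal 19 (0.0405) or 21 (0.0428). Dgcr8, which did not pass the filter over the HA-positive libraries alone, gave -0.61 ± 0.34, and Tnrc6c gave -0.28 ± 0.18. Tnrc6b, at -0.02 ± 0.12, and Ago2, at -0.01 ± 0.14, were nearest to 0.

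**Figure D4:**
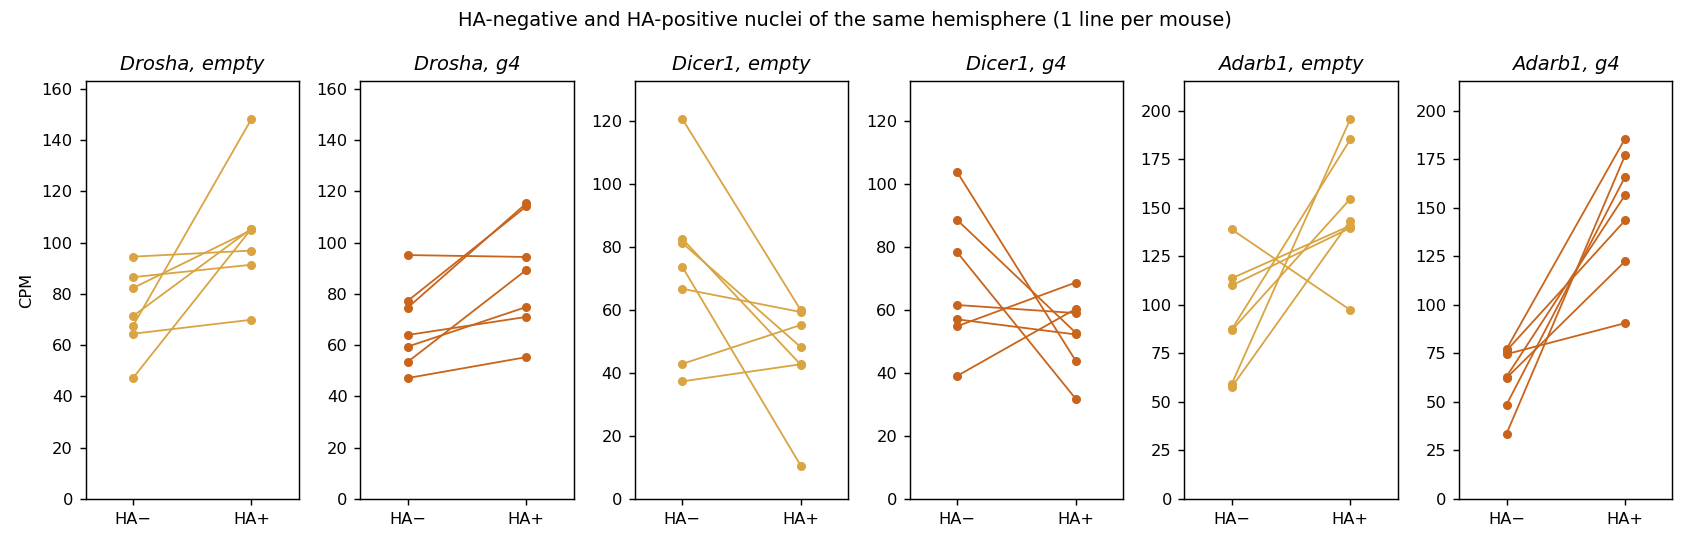
CPM of Drosha, Dicer1 and the editing enzyme gene Adarb1 (vertical axes, linear, from 0) in HA-negative and HA-positive nuclei, 1 line per mouse, for each vector. Drosha lines run upward in 7 of 7 animals with empty and 6 of 7 with g4, and Adarb1 lines in 6 of 7 and 7 of 7. Lines join libraries by title, and with g4 those of animal 19 differed in Xist.

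The other genes of the pathway were taken from 5 lists, with 84 genes in the tables. In none of the g4 comparisons was one of them called: 0 of 52 tested in HA-positive and 0 of 63 in HA-negative nuclei by edgeR, beside 0.0599% and 0.0% of all genes. At an unadjusted p under 0.05 they numbered 6 (11.5%) and 2 (3.17%), beside 6.69% and 3.77% of all genes. Their median log2 fold change was 0.05 in HA-positive and 0.00 in HA-negative nuclei. By list, in HA-positive nuclei, 14 Microprocessor partners had a median of 0.18 (11 above 0), 12 genes of export, Dicer partners and Argonaute loading -0.02 (3 above 0), 9 Argonaute partners -0.09 (4 above 0), 14 genes of deadenylation, decapping and repression 0.09 (10 above 0), and 3 of microRNA tailing and turnover 0.12 (3 above 0). The genes with the smallest p in each list still missed the threshold.

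Among these, Safb, an RNA-binding scaffold protein, stood at 61.9 ± 19.5 CPM with g4 and 31.3 ± 18.8 with empty (0.97 ± 0.37, adjusted p 0.703 by edgeR). Cnot6, a deadenylase subunit, gave 45.9 ± 16.3 against 26.1 ± 13.1 (0.82 ± 0.40, adjusted p 0.736). Both were higher in 7 of 7 animals as paired by title, including the uncertain pair of animal 19, with overlapping ranges. The others were the exonuclease gene Xrn1 (0.70 ± 0.33), the RNA editing enzyme gene Adar (-0.47 ± 0.19), Tsnax, of the translin complex (-0.66 ± 0.31), the RNA-binding protein genes Hnrnpa2b1 (0.30 ± 0.17) and Fxr2 (-0.55 ± 0.43), and the RNA uridylyltransferase genes Tut4 (0.26 ± 0.37) and Tut7 (0.12 ± 0.41).

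Between the sorts, 1 of 57 pathway genes rose with empty and 1 of 62 with g4, beside 7.01% and 6.4% of all genes. It was Adarb1 in both, an adenosine deaminase that edits double-stranded RNA. With g4 its lowest, median and highest values were 33.6, 63.0 and 77.2 CPM in HA-negative and 90.5, 157 and 186 in HA-positive nuclei, so the groups did not overlap (log2 fold change 1.27 ± 0.20, adjusted p 4.6e-05 by edgeR, higher in 7 of 7 animals). With empty they were 57.7, 87.4 and 139 against 97.3, 143 and 196, which overlapped (0.69 ± 0.21, adjusted p 0.0468, higher in 6 of 7). The call with empty was lost with the animal as a block (adjusted p 0.0858), with median-of-ratios factors (0.0532), without a filter on low counts (0.0909), without the libraries under 10000 genes (0.263) and without any one of animals 17, 19, 20, 21, 22 and 23 (0.0681 to 0.195). The call with g4 was kept in all alternatives run. The inhibitory neuron markers rose in the same comparisons, as given above.

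Averaged over both vectors (added after the values were seen), 6 of 68 pathway genes rose in HA-positive nuclei and 2 fell, beside the 13.7% called among all genes. At an unadjusted p under 0.05 by edgeR they numbered 17 (25%), beside 24.9% of all genes. Both shares were near the background. All 6 that rose came from the list of export, Dicer partners and Argonaute loading. Adarb1 rose by 0.97 ± 0.15 log2 units and Adar by 0.37 ± 0.12. The chaperone genes Hspa4 (0.51 ± 0.12), Hspa8 (0.26 ± 0.07), Hsp90aa1 (0.23 ± 0.08) and the cochaperone gene Fkbp4 (0.55 ± 0.18) also rose; the Hsp70 and Hsp90 machinery opens Argonaute for loading and serves many other proteins. Ddx5, a helicase that binds the Microprocessor, fell by 0.32 ± 0.08 and Tut4 by 0.68 ± 0.21. Adarb1, Hspa4, Hspa8 and Ddx5 passed in all alternatives run, while Adar, Fkbp4, Hsp90aa1 and Tut4 each lost the call without the libraries under 10000 genes (adjusted p 0.0575, 0.0758, 0.0528 and 0.0924) and without single animals. Adar, Fkbp4 and Hsp90aa1 also lost it without a filter on low counts (0.105, 0.0770 and 0.128).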

How the data were processed

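Per the labels, the authors deposited raw counts per gene for 28 libraries, in 1 table for HA-positive and 1 for HA-negative nuclei; the submitters' processing notes name the build GRCm38. The sources used here do not give the aligner, counting program, strand setting or use of molecular identifiers. Picograms of RNA per library went into the QIAseq FastSelect kit, per the labels' protocols. Columns were tied to samples through the sample descriptions, since for animals 21 to 23 the title and column numbers differ by 1. One entry of 41550 without a gene name was dropped, and 832852 empty cells were taken as 0, since no cell held a written 0. Totals were 248612 to 902944 counts, and the limits given for 0 counts cover counting error only. CPM were computed with TMM factors over all libraries; levels per kilobase used the union of exons in GENCODE M21 (41474 identifiers matched). The quasi-likelihood test of edgeR 4.0.16 (R 4.3.3, filterByExpr by group, TMM, robust, two-sided) was run on all genes passing the filter. It covered 5 comparisons and 2 added after the values were seen, with a Benjamini-Hochberg adjusted p under 0.05 as the call. Each SE was computed back from that fit, as the absolute log2 fold change over the square root of the F statistic. The 95% intervals were built from these SEs with t quantiles and include the spread between libraries. The edgeR test was tried on simulated data with a common dispersion and changes larger than any in the main fits of the 10 genes. How often differences of the size seen here would be called was not tested. Alternatives were DESeq2 1.42.0, median-of-ratios factors, no filter, the animal as a block, leaving out each animal, the g4 HA-positive library of animal 19, or the libraries under 10000 genes. The 4 libraries of an animal share its number in the titles, and this was used to pair them. For animal 19 the g4 HA-positive library differed in Xist from the other libraries of that number, so its pairing is uncertain. Counts of animals and the animal as a block used it as titled. The median correlation of same-animal deviations was 0.01, 0.07, 0.03 and 0.04 in the 4 comparisons of pairs. Named were all 10 genes, Ago4, every pathway gene called in a comparison and the 2 of each pathway list with the smallest p for g4 in HA-positive nuclei, of which 1 gene is not reported here. The genes, lists and comparisons were chosen with earlier results of these data known.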

Additional observations from a re-analysis of the deposited data

Results flagged for a closer look

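Of 40 sets of 7 libraries (10 genes in 4 groups), 5 held a library far from its group by Dixon's criterion, of which chance gives about 1 in 20. Dgcr8 had 63.8 CPM (34 counts) in the empty HA-negative library of animal 18, where the next value was 35.9. In the empty HA-positive group, the library of animal 21 had 113 CPM of Xpo5 (41 counts, next 48.9) and 144 CPM of Ago3 (52 counts, next 105), and that of animal 17 had 10.5 CPM of Dicer1 (3 counts, next 42.6). Tnrc6b had 107 CPM (39 counts) in the g4 HA-positive library of animal 18, where the next value was 165. The last 4 of these values came from libraries in which fewer than 10000 genes were detected.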

How the results depend on the processing

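Of 866 values of the 10 genes under the alternatives, 774 kept their direction and their side of the threshold, 82 changed sign, 8 lost the call and 2 gained it; the cause was not tested. The changes of call were those of Drosha and Dicer1 given above. Those that changed sign were not called before or after. Genes called for g4 in HA-positive nuclei numbered 3, and were 28 without a filter, 11 with DESeq2, 1 with the animal as a replicate block and 0 without the libraries under 10000 genes (1 to 5 over single animals or libraries left out). For g4 in HA-negative nuclei DESeq2 called 1, and the difference of effects gave 3 without a filter. Between sorts with empty, 388 became 661 without a filter and 251 to 371 without single animals, and with g4 401 became 218 to 507. The mean g4 effect gave 26 without a filter, 11 with DESeq2 and 0 to 2 without single animals or libraries. The mean difference between sorts gave 1584 without a filter in place of 984, and its genes of the set called were 0 with median-of-ratios factors, without a filter and with the block, and 0 to 1 over single animals left out. The block changed no other call of the 10 genes.

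Xpo5 turned to 0.062 (block) and 0.68 (without the libraries under 10000 genes) for g4 in HA-positive nuclei, and without those libraries to 0.25 for the mean g4 effect, -0.58 between sorts with empty and -0.15 for their mean. In the difference of effects it was -0.040 with median-of-ratios factors and -0.043 with DESeq2. Tnrc6b, at 0.00 for g4 in HA-positive nuclei, became -0.0074 with median-of-ratios factors, -0.00045 with DESeq2 and -0.0038 with the block; in the difference of effects it became -0.014 and -0.0040 with the first 2, and without the libraries under 10000 genes 0.068 between sorts with g4 and 0.028 in the mean. Ago2 between sorts became -0.010 (no filter) and -0.017 (block) with empty and 0.025 in the mean without those libraries, where Ago3 with g4 became -0.023.

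With single animals or libraries left out, the ranges that crossed 0 were, for g4 in HA-positive nuclei, Xpo5 -0.56 to 0.46, Tnrc6b -0.072 to 0.056, Tnrc6c -0.091 to 0.46 and Tut7 -0.072 to 0.33. For g4 in HA-negative nuclei they were Drosha -0.21 to 0.0060, Dgcr8 -0.46 to 0.017, Dicer1 -0.16 to 0.11, Ago3 -0.014 to 0.20, Tnrc6a -0.023 to 0.16 and Tnrc6b -0.063 to 0.057. For the difference of effects they were Drosha -0.18 to 0.058, Xpo5 -0.36 to 0.67, Ago1 -0.10 to 0.28, Ago2 -0.21 to 0.033, Ago3 -0.010 to 0.36, Tnrc6b -0.094 to 0.11 and Tnrc6c -0.31 to 0.29. Between sorts with empty they were Xpo5 -0.32 to 0.43, Ago2 -0.15 to 0.20, Tnrc6b -0.17 to 0.075 and Tnrc6c -0.52 to 0.0026, and with g4 Ago2 -0.11 to 0.030, Ago3 -0.034 to 0.14 and Tnrc6b -0.075 to 0.050. For the mean g4 effect they were Dgcr8 -0.14 to 0.34, Xpo5 -0.37 to 0.13 and Tnrc6b -0.032 to 0.047, and for the mean between sorts Ago2 -0.13 to 0.086, Ago3 -0.069 to 0.027, Tnrc6a -0.12 to 0.081 and Tnrc6b -0.13 to 0.049.

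By the longest transcript the levels per kilobase were 18.1 for Drosha, 9.95 for Tnrc6b, 10.5 for Tnrc6a, 6.07 for Dicer1 and 5.56 for Dgcr8. The counts of seed matches were the same with all annotated 3' UTRs. The 95% interval of Xpo5 for g4 in HA-positive nuclei ran from -1.14 to 0.71, where the SD over empty libraries was 3.58 times that of counting alone.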
